A study of Mus musculus with 12 samples.

Results

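The genes described here are the nuclear-encoded subunits of oxidative phosphorylation, chosen by symbol: the Nduf subunits of complex I, Sdha to Sdhd of complex II, the Uqcr genes of complex III, the Cox4 to Cox8 genes of complex IV and the Atp5 genes of complex V. Pseudogenes and assembly factors were left out. This rule used no measured value and found 87 genes of the 21004 in the table. By complex they numbered 38 in complex I, 4 in complex II, 8 in complex III, 20 in complex IV and 17 in complex V. Ndufa4 and its paralog Ndufa4l2 were placed with complex IV, where the Ndufa4 protein is now assigned.

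RNA sequencing of whole testis from ICR mice aged 8 weeks gave 12 libraries in 4 groups of 3. One group was treated with busulfan plus L.J. at 10 mg/kg, one with busulfan, one with L.J. at 10 mg/kg, and one was the control. Busulfan is an alkylating agent that depletes germ cells; the labels do not spell out L.J., and no source used here gives the dose or timing of busulfan. The design text asks what FMT does to testes damaged with busulfan, and no library carries that term. Nothing in the labels says that replicates came from separate mice, so p-values measure the spread between these libraries, which may be technical.

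The respiratory chain passes electrons through complexes I to IV and pumps protons across the inner mitochondrial membrane, and complex V, the ATP synthase, uses the return flow to make ATP. Most subunits are encoded in the nucleus and made by every cell. Mammalian testis is known for germ cell forms of several of them: Cox6b2, Cox7b2 and Cox8c are testis forms of cytochrome c oxidase subunits whose ubiquitous forms are Cox6b1, Cox7b and Cox8a, and cytochrome c itself has the testis form Cyct beside the ubiquitous Cycs.

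Expression is given in FPKM, which corrects fragment numbers for transcript length and library size, so levels of different genes can be set side by side. No read counts were used; steps in the low FPKM values, read against GENCODE transcript lengths, gave an estimated depth between 13700000 fragments (busulfan replicate 2) and 17700000 fragments. Marker lists of testis cell types differed between the busulfan-treated libraries and the controls. The list of 20 elongating spermatid markers, all tested and none at 0, summed to 52205 to 66463 FPKM in the busulfan plus L.J. libraries, 45392 to 56597 FPKM in the busulfan libraries, 7766 to 32922 FPKM in the L.J. libraries and 5142 to 14722 FPKM in the controls. The list of 22 Sertoli cell markers, none at 0, summed to 758 to 876 FPKM with busulfan plus L.J., 722 to 823 FPKM with busulfan, 1281 to 6384 FPKM with L.J. and 1545 to 2989 FPKM in the controls. The libraries labelled busulfan thus carried more spermatid RNA than the controls, although busulfan is known to deplete germ cells. In busulfan against control 11 of 14 spermatogonia markers tested were called lower and 0 higher (limma, adjusted p under 0.05, median change -0.84). Of 18 meiotic spermatocyte markers 9 were lower and 2 higher (median -0.49), and of 18 round spermatid markers 1 was lower and 12 higher. Of all genes 51.4% were called lower and 12.4% higher. Every direction below is that of the libraries as labelled. L.J. replicate 2 had the highest spermatid sum of its group and L.J. replicate 3 the highest Sertoli sum of all 12 libraries; the pair ratios and FPKM shares are also given without both, and the L.J. comparisons without each. In whole testis, fewer cells of a type and less RNA per cell cannot be told apart.

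Among the subunits, the testis forms Cox8c and Cox6b2 held the highest and second highest mean in every group. Cox8c (gene ID 75483, GRCm38 chromosome 12, 102899306 to 102900534) was the most abundant of the 87 in every group. It had 479, 367 and 468 FPKM in the busulfan plus L.J. libraries, 523, 375 and 464 FPKM in the busulfan libraries, 727, 568 and 323 FPKM in the L.J. libraries and 587, 699.5 and 609.7 FPKM in the controls. All 6 busulfan-treated libraries lay below the 3 controls, while the L.J. libraries spanned both. On the log2(FPKM + 1) scale Cox8c changed by -0.49 ± 0.28 (SE) in busulfan against control, which did not pass the test across all genes (limma, adjusted p = 0.142). Its ubiquitous counterpart Cox8a (gene ID 12868, chromosome 19, 7215158 to 7217616) had 26.55, 23.7 and 26.2 FPKM with busulfan plus L.J., 27.0, 19.2 and 25.1 FPKM with busulfan, 48.1, 26.6 and 104 FPKM with L.J., and 80.9, 56.0 and 111 FPKM in the controls. The 6 busulfan-treated libraries were again all below the controls, and L.J. replicate 2 was level with them. Cox8a had the lowest fitted change of any subunit in busulfan against control, -1.71 ± 0.39 (adjusted p = 0.00589), and also in busulfan plus L.J. against control, -1.61 (adjusted p = 0.00576).

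Cox6b2 (gene ID 333182, chromosome 7, 4751792 to 4753094), the testis form of the subunit that bridges the oxidase dimer, was not called in any comparison. It had 350.2, 297 and 344 FPKM with busulfan plus L.J., 344, 288 and 329 FPKM with busulfan, 388, 348 and 152 FPKM with L.J., and 301, 335 and 334 FPKM in the controls. The groups overlapped, and only L.J. replicate 3 stood apart. The fitted change was -0.02 ± 0.29 in busulfan against control (adjusted p = 0.966) and 0.03 ± 0.29 in busulfan plus L.J. against control (adjusted p = 0.937). Cox6b1 (gene ID 110323, chromosome 7, 30616971 to 30626114), the ubiquitous form, had 56.8, 34.5 and 51.2 FPKM with busulfan plus L.J., 45.9, 41.6 and 45.0 FPKM with busulfan, 93.1, 53.25 and 129.9 FPKM with L.J., and 117, 86.1 and 152 FPKM in the controls. It was lower in every busulfan-treated library than in every control, by -1.36 ± 0.31 in busulfan against control (adjusted p = 0.0056) and -1.29 in busulfan plus L.J. against control (adjusted p = 0.00518).

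The third pair differed most in level. Cox7b2 (gene ID 78174, chromosome 5, 71442823 to 71548205) had 189, 175 and 151 FPKM with busulfan plus L.J., 192, 167 and 194 FPKM with busulfan, 274, 196 and 144 FPKM with L.J., and 263, 262 and 217 FPKM in the controls. The ubiquitous Cox7b (gene ID 66142, chromosome X, 106015700 to 106022450) had 3.16, 2.65 and 3.07 FPKM with busulfan plus L.J., 4.26, 2.22 and 3.12 FPKM with busulfan, 5.85, 2.90 and 10.9 FPKM with L.J., and 10.1, 8.09 and 14.55 FPKM in the controls. Both were lower in all 6 busulfan-treated libraries than in the controls. Cox7b2 changed by -0.42 ± 0.22 in busulfan against control, short of the threshold (adjusted p = 0.105). In busulfan plus L.J. against control it changed by -0.52, which passed it (adjusted p = 0.0489). That call was lost in 10 of the 12 fits that left out 1 library. Cox7b fell by 1.497 ± 0.35 in busulfan against control (adjusted p = 0.00635) and by 1.56 in busulfan plus L.J. against control (adjusted p = 0.00431).

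**Figure D1:**
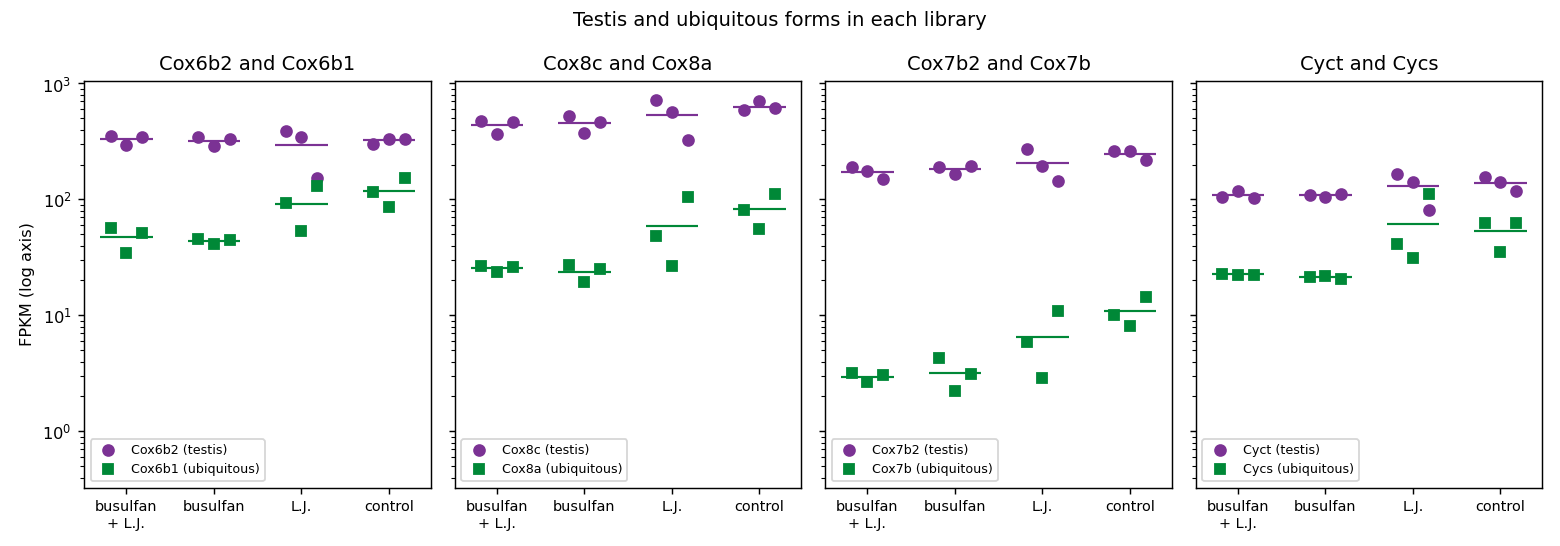
FPKM (log axis) of 3 testis forms of complex IV subunits and of testis cytochrome c, with their ubiquitous forms, in each library (points) with the group mean (lines), by group from left to right: busulfan plus L.J., busulfan, L.J. and control. The ubiquitous forms sit lower in all 6 busulfan-treated libraries than in all 3 controls (Cox8a 19.2 to 27.0 FPKM against 56.0 to 111 FPKM), while Cox6b2 overlaps between these groups.

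The ratio of a testis form to its ubiquitous form within 1 library does not move with the scaling of that library, apart from the added pseudocount. Cox6b2 made up 87.6% ± 1.84 of the Cox6b2 and Cox6b1 FPKM in the busulfan plus L.J. libraries and 87.9% ± 0.434 in the busulfan libraries, against 73.8% ± 17.5 in the L.J. libraries and 73.5% ± 5.51 in the controls (SD, n = 3 each). For Cox8c over Cox8a the shares were 94.5% ± 0.462 with busulfan plus L.J., 95.03% ± 0.138 with busulfan, 88.3% ± 11.02 with L.J. and 88.4% ± 3.99 in the controls. For Cox7b2 over Cox7b they were 98.3% ± 0.256 with busulfan plus L.J., 98.3% ± 0.439 with busulfan, 96.5% ± 3.04 with L.J. and 95.7% ± 1.73 in the controls. In all 3 pairs both busulfan groups lay above the controls without overlap, and the L.J. group was the most spread.

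The log2 ratio was higher in busulfan than in control by 1.35 for Cox6b2 over Cox6b1, 1.23 for Cox8c over Cox8a and 1.08 for Cox7b2 over Cox7b; with 3 libraries a side, the two-sided exact permutation p was 0.1 for each, the smallest this design allows. Averaged over L.J. status, which uses all 12 libraries and permutes within L.J. status, the difference was 1.25 for Cox6b2 over Cox6b1 (exact p = 0.01, 0.03 after Benjamini-Hochberg adjustment over the 6 pairs tested). It was 0.99 for Cox8c over Cox8a (exact p = 0.035, adjusted 0.04) and 0.83 for Cox7b2 over Cox7b (exact p = 0.04, adjusted 0.04). Without L.J. replicates 2 and 3 these differences were 1.05 (exact p = 0.0125), 0.69 (exact p = 0.025) and 0.60 (exact p = 0.05). Leaving out L.J. replicate 3 alone gave 0.57 for the Cox8c pair (exact p = 0.07) and 0.51 for the Cox7b2 pair (exact p = 0.08). With any 1 library left out, the p of the Cox8c pair exceeded 0.05 in 7 of 12 cases and that of the Cox7b2 pair reached or exceeded it in 9. Between busulfan plus L.J. and busulfan the ratios differed by -0.03, -0.16 and -0.05, with exact p of 0.9, 0.1 and 0.8, and of these 3 only the Cox8c pair did not overlap.

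Cytochrome c, the electron carrier that feeds complex IV and lies outside the 87 genes, has a testis form of its own. Cyct had 106, 119 and 102 FPKM with busulfan plus L.J., 109.6, 105 and 112 FPKM with busulfan, 164, 142 and 81.8 FPKM with L.J., and 156, 142 and 117 FPKM in the controls. Cycs had 22.8, 22.5 and 22.5 FPKM with busulfan plus L.J., 21.4, 21.8 and 20.55 FPKM with busulfan, 41.3, 31.2 and 112 FPKM with L.J., and 62.8, 34.9 and 62.7 FPKM in the controls. Cyct made up 82.8% ± 1.13 of their sum with busulfan plus L.J. and 83.7% ± 0.833 with busulfan, against 68.0% ± 22.4 with L.J. and 72.2% ± 7.63 in the controls. The log2 ratio was higher with busulfan by 0.95 averaged over L.J. status (exact permutation p = 0.01, adjusted 0.03). It was higher by 0.58 without L.J. replicates 2 and 3 (exact p = 0.025) and by 0.53 without L.J. replicate 3 alone. Leaving out each library in turn gave exact p of 0.005 to 0.09 for this ratio, which no longer passed in 3 of 12 cases.

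2 further pairs were of other tissue or condition forms, and their ratios moved in opposite directions. Cox7a1, the heart and skeletal muscle form of subunit 7a, was at 1.04 to 3.28 FPKM in the 6 busulfan-treated libraries, at 3.80, 2.37 and 15.4 FPKM with L.J. and at 8.04, 4.56 and 8.61 FPKM in the controls. It fell by 1.43 ± 0.49 in busulfan against control (adjusted p = 0.0249). That call was lost in 4 of the 12 fits that left out 1 library. Its log2 ratio to Cox7a2 was lower by 1.06 averaged over L.J. status (exact permutation p = 0.035, adjusted 0.04). The ratio was lower by 0.74 without L.J. replicates 2 and 3 and by 0.66 without L.J. replicate 3 alone (exact p = 0.05). With any 1 library left out, its exact p reached or exceeded 0.05 in 6 of 12 cases. That ratio overlapped between busulfan plus L.J. and control (difference -0.73, exact p = 0.2), and was higher by 0.55 in busulfan plus L.J. than in busulfan without overlap (exact p = 0.1, adjusted 0.3). The muscle markers summed to 6.10 to 15.4 FPKM over the 12 libraries, with 3 of 12 genes tested, and Acta1 was at 0 in 7 libraries; 8 of 9 peritubular myoid markers were also lower in busulfan than in control, and their part in the Cox7a1 result was not tested. Ndufa4l2, a paralog of Ndufa4 known to be induced in hypoxia, had 35.4, 31.0 and 42.2 FPKM with busulfan plus L.J., 30.7, 28.8 and 33.2 FPKM with busulfan, 39.3, 43.4 and 19.8 FPKM with L.J., and 29.6, 30.5 and 28.8 FPKM in the controls. Busulfan and control overlapped for Ndufa4l2 (change 0.06, adjusted p = 0.844), whereas Ndufa4 fell by 1.55 ± 0.37 (adjusted p = 0.00655). Their log2 ratio was higher with busulfan by 1.41 averaged over L.J. status (exact p = 0.015, adjusted 0.03) and by 1.30 without L.J. replicates 2 and 3 (exact p = 0.0125).

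The remaining tissue forms were at or near the floor. Of the 87 genes, 83 reached 1 FPKM in at least 3 libraries and were tested. The 4 others were Cox4i2, the lung form of subunit 4, at 0.24 to 1.56 FPKM, Cox6a2, the muscle form of subunit 6a, at 0 to 1.09 FPKM, Cox8b, the muscle form of subunit 8, listed at 0 except for 0.18 and 0.17 FPKM in controls 1 and 3, and Ndufb4b, a gene copy related to Ndufb4, listed at 0 in all 12 libraries.

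**Figure D2:**
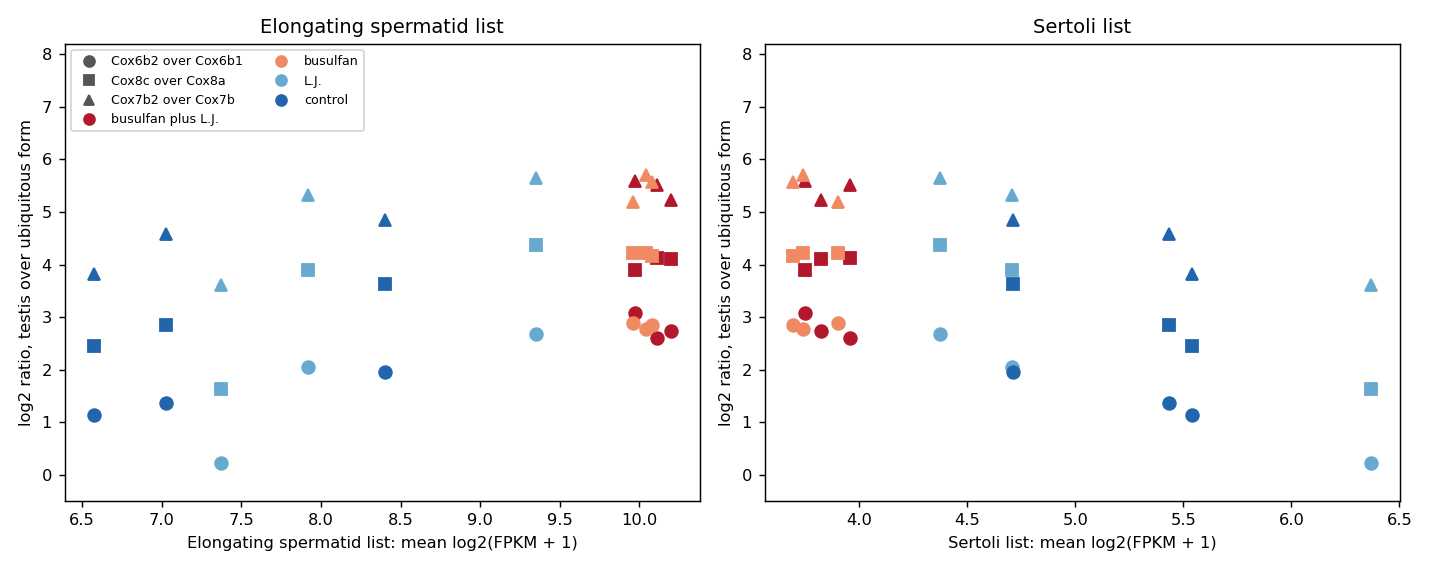
log2 ratio of testis over ubiquitous form in each library against the mean log2(FPKM + 1) of the elongating spermatid list (left) and of the Sertoli list (right), coloured by group. The 6 busulfan-treated libraries cluster at spermatid means of 9.96 to 10.2 with ratios for Cox6b2 over Cox6b1 of 2.60 to 3.07, and L.J. replicate 3, with the highest Sertoli mean of 6.37, has the lowest ratio of 0.22.

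Across the L.J. and control libraries these ratios fell with each step up in the Sertoli mean, as that plot shows library by library. The order by the spermatid mean was not kept. L.J. replicate 3, with a spermatid mean of 7.37, had a lower Cox6b2 ratio (0.22) than control replicate 3 (mean 6.57, ratio 1.14). L.J. replicate 2, with a spermatid mean of 9.35, had log2 ratios of 2.68, 4.37 and 5.66 for the Cox6b2, Cox8c and Cox7b2 pairs, inside or above the range of the 6 busulfan-treated libraries. L.J. replicate 3 had 0.22, 1.62 and 3.61, below every other library. In busulfan against control 18 of 20 elongating spermatid markers rose (median change 2.91), 20 of 21 Sertoli markers fell (median -1.49) and 13 of 15 Leydig cell markers fell (median -1.73). The part of these cell types in the ratios was not tested.

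Promoter sequence is shown for members of the pairs other than Cox8c because the testis and ubiquitous forms of 1 subunit differed while sitting in the same mitochondrial complex. The windows are the 250 bases upstream of the RefSeq start on GRCm38.p6, written 5′ to 3′ on the strand of the gene. Cox6b2 lies at chr7:4753095-4753344 (minus strand), Cox7b2 at chr5:71548206-71548455 (minus strand), Cox6b1 at chr7:30626115-30626364 (minus strand), Cox7b at chrX:106015450-106015699 (plus strand) and Cox8a at chr19:7217617-7217866 (minus strand). Capitals mark matches on either strand to CCAAT, to the shorter cAMP response element core TGACG, to the ETS site CCGGAAG, to the NRF1 core GCATGCGC and to the TATA box TATAAA.
Cox6b2: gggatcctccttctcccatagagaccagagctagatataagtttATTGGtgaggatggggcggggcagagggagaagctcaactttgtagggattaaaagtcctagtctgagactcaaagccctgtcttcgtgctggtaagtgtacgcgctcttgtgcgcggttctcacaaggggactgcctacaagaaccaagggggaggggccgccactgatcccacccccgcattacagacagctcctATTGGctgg
Cox7b2: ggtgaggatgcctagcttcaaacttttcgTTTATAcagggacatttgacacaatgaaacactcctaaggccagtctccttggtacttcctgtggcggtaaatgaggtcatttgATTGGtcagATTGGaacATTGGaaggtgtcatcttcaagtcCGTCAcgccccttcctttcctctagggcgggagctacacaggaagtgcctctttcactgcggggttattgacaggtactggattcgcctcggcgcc
Cox6b1: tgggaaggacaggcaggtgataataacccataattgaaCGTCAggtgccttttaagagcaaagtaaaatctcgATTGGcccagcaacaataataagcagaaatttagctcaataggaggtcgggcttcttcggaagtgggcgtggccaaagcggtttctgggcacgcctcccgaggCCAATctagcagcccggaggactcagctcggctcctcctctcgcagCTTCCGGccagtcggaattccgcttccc
Cox7b: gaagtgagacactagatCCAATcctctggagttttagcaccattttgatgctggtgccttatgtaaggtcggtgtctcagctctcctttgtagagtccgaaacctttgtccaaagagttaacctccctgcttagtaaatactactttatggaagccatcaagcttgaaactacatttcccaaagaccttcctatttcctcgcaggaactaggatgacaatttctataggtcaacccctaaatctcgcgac
Cox8a: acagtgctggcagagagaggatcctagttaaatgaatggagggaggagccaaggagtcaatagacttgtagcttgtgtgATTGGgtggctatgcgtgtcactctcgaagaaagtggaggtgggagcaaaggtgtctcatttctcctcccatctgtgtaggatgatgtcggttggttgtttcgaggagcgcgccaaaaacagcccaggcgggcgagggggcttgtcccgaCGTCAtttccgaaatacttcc

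Of the testis forms, Cox6b2 held 2 CCAAT matches and Cox7b2 held 3, with Cox8c not analysed here, and so did the ubiquitous forms, with 2 in Cox6b1, 1 in Cox7b and 1 in Cox8a. TGACG occurred once each in Cox7b2, Cox6b1 and Cox8a. The ETS letters occurred only in Cox6b1 and TATAAA only in Cox7b2. None of the 5 windows held the NRF1 core. GC content was 54.8% for Cox6b2, 50.4% for Cox7b2, 54.0% for Cox6b1, 43.6% for Cox7b and 52.8% for Cox8a, and no motif searched was present in Cox6b2 and Cox7b2 and absent from all 3 ubiquitous ones.

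RefSeq held a promoter window for 69 of the 87 genes. The NRF1 core, named for a factor that drives nuclear genes of respiration, was present in 8 of them, 11.6%, against 4.2% of the 11680 windows of all genes tested and 2.32% of all 27025 windows. CCGGAAG was in 15.9% of the subunit windows against 12.7% of those tested, CCAAT in 43.5% against 36.8%, TGACG in 31.9% against 24.7%, the full element TGACGTCA, which contains TGACG, in 5.8% against 2.58%, and TATAAA in 8.7% against 6.93%. The 8 genes with the NRF1 core were Atp5g2, Atp5k, Atp5l, Cox6a1, Ndufa11, Ndufa6, Ndufa8 and Sdhb; all 8 were called lower in busulfan against control on the deposited scale, with changes of -0.48 to -1.09, beside 57 of the 83 subunits tested and 51.4% of all genes. Atp5k, Ndufa6 and Ndufa8 each lost the call when 1 library was left out. With the Sertoli list held constant none of the 8 was called lower, beside 71 of all 14675 genes tested. Median GC content was 56% in the subunit windows and 58.8% in all windows tested. A match is a string of letters and shows no binding.

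The chain as a whole was lower with busulfan on the deposited scale. In busulfan against control 57 of the 83 subunits tested fell and 2 rose, beside 51.4% of all 14675 genes called lower and 12.4% called higher, 63.7% in all (limma, adjusted p under 0.05). Busulfan plus L.J. against control gave 64 lower and 1 higher, beside 53.5% and 13% of all genes, 66.5% in all. The median change was -0.61 over the subunits and -0.51 over all genes in the first comparison, and -0.72 and -0.55 in the second, and 51 of 83 subunits lay below the median of all genes in the busulfan libraries and 53 in those with both treatments. The groups did not overlap for 63 lower and 2 higher subunits in busulfan against control, beside 60.7% and 16.1% of all genes, and for 68 lower and 2 higher in busulfan plus L.J. against control, beside 63.4% and 17.2%. Without control replicate 3 the calls in busulfan against control were 38 lower and 0 higher, and 36 of the 59 calls were kept whichever single library was left out. Both comparisons share the control libraries.

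These counts depended on how a library is scaled. With each library scaled to the median of its tested genes, 9 subunits fell and 3 rose in busulfan against control. Of all 14675 genes tested, 1982 fell and 3104 rose under that scaling. With the Sertoli list held constant, none fell and 3 rose, beside 71 and 3859 of all genes. The subunit median was then 0.82, against 0.70 for all genes. The 9 that fell relative to the median of all genes were Cox8a, Cox7b, Ndufb11, Ndufa4, Ndufc2, Ndufa1, Cox6b1, Atp5g3 and Sdhd, at -0.55 to -1.10. All 3 ubiquitous partners of the testis forms were among them. The 3 that rose under both scalings were Ndufa11b, Ndufa13 and Atp5mpl. Among the testis forms the same scaling to the median gave 0.61 for Cox6b2, 0.14 for Cox8c and 0.21 for Cox7b2. Quantile normalization, a further scaling, gave 55 lower and 1 higher subunits, beside 2761 and 2448 of all 14675 genes. The subunit median was then -0.67, against -0.16 for all genes. For complexes I to V in order the medians were -0.55, -0.80, -0.81, -0.90 and -0.76.

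**Figure D3:**
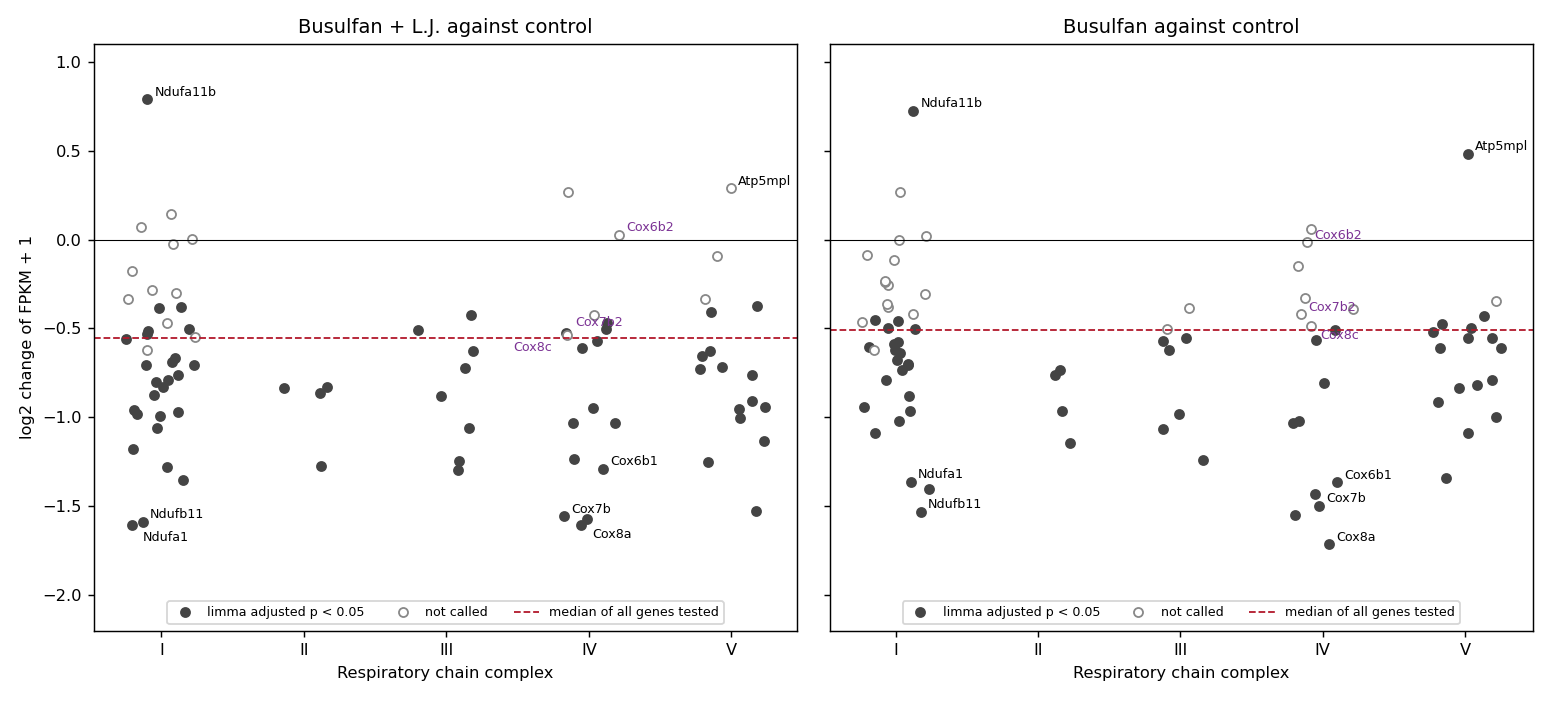
log2 change of FPKM + 1 for each of the 83 subunits tested, by complex, in busulfan plus L.J. against control (left) and busulfan against control (right), with filled points for limma adjusted p under 0.05 and a dashed line at the median of all genes tested (-0.55 and -0.51). Testis forms are named in purple. Most points lie below 0 on this deposited scale and around the dashed line. With the Sertoli list held constant 76 of 83 lie above 0 in busulfan against control, and the median of all genes is then 0.70.

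The share of all FPKM held by the subunits needs no scaling between libraries. The 87 genes held 1.14%, 1.02% and 1.06% of the FPKM sum in the busulfan plus L.J. libraries, 1.29%, 1.01% and 1.14% in the busulfan libraries, 1.76%, 1.34% and 1.56% in the L.J. libraries and 1.81%, 1.80% and 2.02% in the controls. All 6 busulfan-treated libraries lay below all 6 others. Averaged over L.J. status the share was lower by 0.605 percentage points with busulfan (exact permutation p = 0.005, the smallest the 12 libraries allow), and by 0.707 without L.J. replicates 2 and 3 (exact p = 0.0125). Each of complexes I to V gave the same exact p of 0.005. Because shares sum to a fixed whole, the spermatid genes that filled more of the busulfan libraries, 45392 to 66463 FPKM for the list of 20, lower every other share, and their part was not tested.

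**Figure D4:**
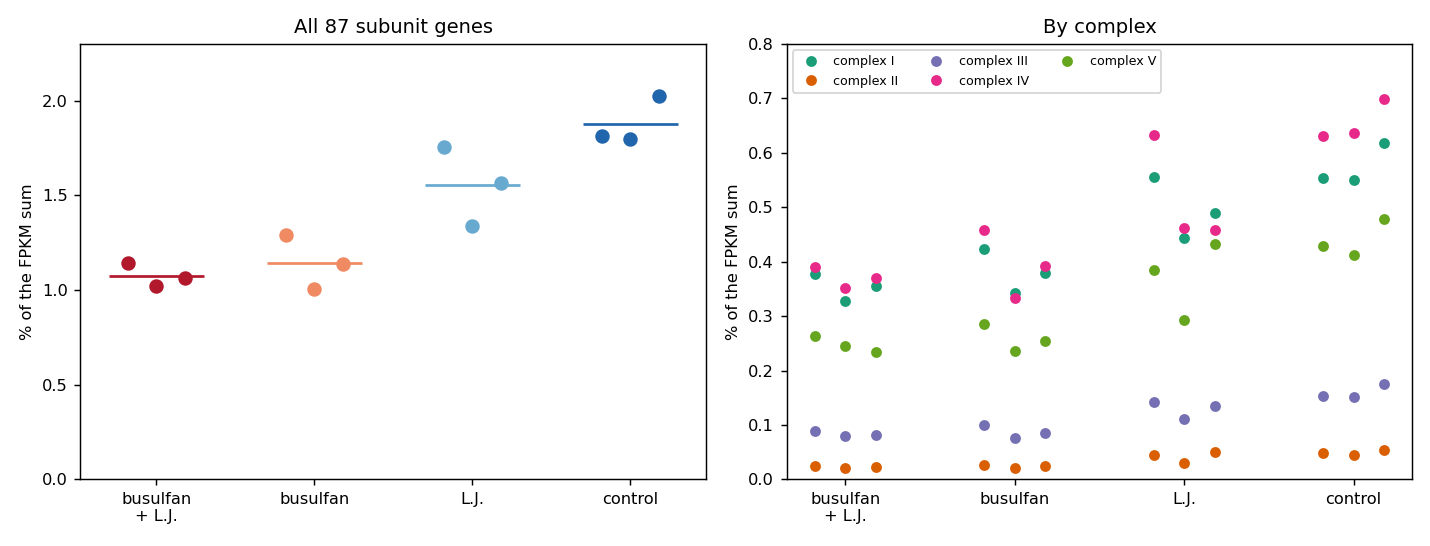
Percent of the FPKM sum of each library held by the 87 subunit genes (left; lines are group means) and by each complex (right), by group from left to right: busulfan plus L.J., busulfan, L.J. and control. The 6 busulfan-treated libraries hold 1.01% to 1.29%, below the 6 others at 1.34% to 2.02%.

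Complex I takes electrons from NADH. Of its 7 core subunits, which carry the flavin and the iron-sulphur clusters, 6 fell in busulfan against control on the deposited scale. With the Sertoli list held constant, complex I as a whole had a median of 0.83, against 0.70 for all genes. Ndufs8 was at 8.55, 6.17 and 9.45 FPKM with busulfan plus L.J., 11.7, 6.24 and 9.84 FPKM with busulfan, 13.7, 8.47 and 11.5 FPKM with L.J., and 16.3, 18.9 and 23.1 FPKM in the controls. It had the lowest change of the core, -1.02 ± 0.25 (adjusted p = 0.00684), and all other libraries lay below the controls. Ndufs7 changed by -0.79, Ndufs3 by -0.70, Ndufs1 by -0.64 and Ndufv1, which binds NADH, by -0.50, all called. Ndufv2, an iron-sulphur subunit, did not pass at -0.11 (adjusted p = 0.573).

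Of the 30 accessory subunits of complex I tested, 16 fell and 1 rose on the deposited scale, a share near the 51.4% of all genes called lower. The lowest were Ndufb11 at -1.53 ± 0.37, Ndufc2 at -1.40 ± 0.23 and Ndufa1 at -1.36 ± 0.32. Ndufb11 had 7.98, 6.34 and 8.67 FPKM with busulfan plus L.J., 10.1, 5.50 and 8.97 FPKM with busulfan, 18.2, 9.67 and 32.9 FPKM with L.J., and 25.9, 17.6 and 33.5 FPKM in the controls, with no overlap between either busulfan group and control. The riser was Ndufa11b, a gene copy related to Ndufa11, at 6.55, 5.39 and 7.99 FPKM with busulfan plus L.J., 8.02, 4.58 and 6.53 FPKM with busulfan, 2.42, 4.29 and 2.51 FPKM with L.J., and 3.53, 3.97 and 2.73 FPKM in the controls (change 0.72 ± 0.24, adjusted p = 0.021). Ndufa11 itself fell by 0.96 (adjusted p = 0.0078). How reads were divided between such near-identical copies is not given in the sources used here, so the values of Ndufa11, Ndufa11b, Ndufb4 and Ndufb4c are uncertain. Ndufa12, Ndufa5 and Ndufa13 had changes of -0.00, 0.02 and 0.27 that did not pass; Ndufa12 averaged 243 ± 24.2 FPKM with busulfan plus L.J., 242 ± 29.2 with busulfan, 243 ± 71.2 with L.J. and 242 ± 12.8 in the controls (SD, n = 3 each).

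Complex II, succinate dehydrogenase, is the 1 enzyme shared by the citric acid cycle and the chain. All 4 of its subunits fell in busulfan against control on the deposited scale. With the Sertoli list held constant all 4 stood above 0, with a median of 0.56 against 0.70 for all genes. The flavoprotein Sdha had 38.5, 36.8 and 34.5 FPKM with busulfan plus L.J., 40.0, 39.1 and 41.3 FPKM with busulfan, 67.8, 47.4 and 61.5 FPKM with L.J., and 66.2, 64.2 and 71.7 FPKM in the controls. Both busulfan groups lay below all other libraries, and the change in busulfan against control was -0.73 ± 0.14 (adjusted p = 0.00395). The iron-sulphur subunit Sdhb changed by -0.76, and the membrane anchors Sdhc and Sdhd by -0.96 and -1.15. Sdhd was the 1 member of complex II that also fell relative to the median of all genes (-0.55, adjusted p = 0.0314 with each library scaled to that median).

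Complex III passes electrons to cytochrome c. In busulfan against control 6 of the 8 subunits chosen by the Uqcr symbol fell on the deposited scale. When the Sertoli list was held constant all 8 Uqcr genes were above 0, with a median of 0.82 against 0.70 for all genes. Cytochrome c1 (Cyc1), a further subunit of complex III, lies outside the symbol rule. It changed by -1.35 ± 0.24 (limma, adjusted p = 0.00381) and is counted with the mobile carriers below. The small subunits Uqcr11 and Uqcr10 changed by -1.24 ± 0.28 and -1.06 ± 0.28, the core protein Uqcrc2 by -0.98 ± 0.16, and the Rieske iron-sulphur protein Uqcrfs1 by -0.62 ± 0.18. Uqcrc2 had 24.2, 22.7 and 23.1 FPKM with busulfan plus L.J., 33.7, 23.4 and 28.8 FPKM with busulfan, 49.0, 34.6 and 40.3 FPKM with L.J., and 53.8, 60.75 and 55.8 FPKM in the controls, so the 6 busulfan-treated libraries lay below all others. The other core protein, Uqcrc1, did not pass in busulfan against control (-0.38, adjusted p = 0.0993) and fell in busulfan plus L.J. against control (-0.72, adjusted p = 0.00816).

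In complex IV 10 of 17 subunits tested fell and none rose in busulfan against control on the deposited scale. When the Sertoli list was held constant 13 of 17 were above 0, with a median of 0.86 against 0.70 for all genes. On the deposited scale, the 10 calls are near the 51.4% of genes called lower. The median of -0.56 is near the -0.51 over all genes. After quantile normalization 13 of the 17 were called lower, with a median of -0.90 against -0.16 for all genes. Besides the ubiquitous partners already described, Cox6a1 fell by 1.03 ± 0.24 (adjusted p = 0.00609) and Cox4i1, the common form of the first nuclear subunit to join, by 0.81 ± 0.21 (adjusted p = 0.00809). Cox4i1 had 98.9, 79.0 and 103 FPKM with busulfan plus L.J., 134, 79.3 and 101 FPKM with busulfan, 148, 118 and 109 FPKM with L.J., and 158, 189 and 197 FPKM in the controls; all 9 treated libraries lay below the controls. Cox5a at -0.33 (adjusted p = 0.0838) and Cox7a2 at -0.15 (adjusted p = 0.524) did not pass in busulfan against control and did in busulfan plus L.J. against control, at -0.47 and -0.51.

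In complex V 15 of 17 subunits fell and 1 rose in busulfan against control on the deposited scale. When the Sertoli list was held constant all 17 were above 0, with a median of 0.82 against 0.70 for all genes. The alpha subunit Atp5a1 and the beta subunit Atp5b of the catalytic head, which bind the nucleotides, changed by -0.997 ± 0.23 and -0.52 ± 0.15. All 3 genes for subunit c, which forms the proton-conducting ring, fell: Atp5g3 by 1.34 ± 0.26, Atp5g2 by 1.09 ± 0.26 and Atp5g1 by 0.79 ± 0.24. Atp5g3 had 35.0, 26.7 and 30.05 FPKM with busulfan plus L.J., 37.0, 31.55 and 36.0 FPKM with busulfan, 72.2, 33.9 and 75.6 FPKM with L.J., and 82.1, 82.0 and 107 FPKM in the controls. Its share of the c subunit FPKM was 37.8% ± 2.43 with busulfan plus L.J., 39.5% ± 3.92 with busulfan, 42.0% ± 5.93 with L.J. and 46.6% ± 2.17 in the controls (SD, n = 3 each), a share that does not move with library scaling. Both busulfan groups lay below the controls in that share, and it was not tested.

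Atp5h, a peripheral stalk subunit, did not pass in busulfan against control (-0.35, adjusted p = 0.0944). Atp5mpl, a small membrane subunit, was the riser: 75.9, 42.8 and 58.5 FPKM with busulfan plus L.J., 64.2, 65.65 and 68.2 FPKM with busulfan, 40.75, 42.4 and 45.0 FPKM with L.J., and 40.7, 50.05 and 50.75 FPKM in the controls. Busulfan lay above control without overlap, by 0.48 ± 0.18 (adjusted p = 0.0379), while busulfan plus L.J. overlapped with control (0.29, adjusted p = 0.18). The call of Atp5mpl was lost in 7 of the 12 fits that left out 1 library, and that of Ndufa11b in 3.

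The chromosome of the subunits was examined after their values were seen and is described without a test. Ndufa1, Ndufb11 and Cox7b are the 3 subunits on the X chromosome, and their changes in busulfan against control were -1.36, -1.53 and -1.497, a median of -1.497 against -0.58 for the 80 autosomal subunits tested. Of the autosomal subunits 54 of 80 fell on the deposited scale. Of all genes tested, 49.4% of the 684 on the X chromosome were called lower, with a median change of -0.63, against 52.1% of the 13771 on autosomes, with a median of -0.51. With the Sertoli list held constant the 3 X-linked subunits changed by -0.01, -0.18 and -0.27, none of them called. The median of all genes was then 0.70.

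No subunit was called when L.J. was added to busulfan. In busulfan plus L.J. against busulfan, none of 83 was called in either direction, none had an unadjusted p under 0.05 in limma (0.743% of all genes did), and 0% of all genes were called. The groups did not overlap for 3 lower and 1 higher subunits, beside 5.19% and 3.39% of all genes. The median change was -0.07 over the subunits and -0.04 over all genes, and its sign depended on 1 library: the subunit median was 0.038 without busulfan replicate 1, -0.20 without busulfan replicate 2 and -0.00078 without busulfan plus L.J. replicate 2. The smallest p belonged to the accessory subunits Ndufa6 and Ndufa8 and to Cox7a2, with changes of -0.35 ± 0.18, -0.38 ± 0.21 and -0.36 ± 0.20 (adjusted p = 1 for each). Ndufa6 had 46.3, 39.1 and 37.8 FPKM with busulfan plus L.J. against 61.3, 39.35 and 59.1 FPKM with busulfan, so the groups overlapped. The share of the FPKM sum averaged 1.08% ± 0.061 with busulfan plus L.J. and 1.15% ± 0.142 with busulfan (SD, n = 3 each; exact permutation p = 0.7).

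L.J. alone gave no call either: in L.J. against control none of 83 passed in limma, where 0% of all genes were called, and 17 subunits, 20.5%, had an unadjusted p under 0.05, beside 4.87% of all genes. Of the 83 changes, 78 were below 0 and the median was -0.32, against -0.11 for all genes. Without L.J. replicate 2 these medians were -0.25 and -0.032, and without L.J. replicate 3 they were -0.34 and -0.20. In the same comparison the median change was -0.92 for the 15 Leydig cell markers, 0.98 for the elongating spermatid list and -0.0069 for the Sertoli list, with no marker called, and their part in the result was not tested. With each library scaled to the median of its genes the subunit median was -0.18, against 0.01 for all genes. The groups did not overlap for 32 subunits, all lower in L.J., beside 7.97% of all genes lower and 1.1% higher. The smallest p belonged to Ndufs8 at -0.75 ± 0.25, Cox6c at -0.59 ± 0.20 and Uqcr10 at -0.81 ± 0.28 (adjusted p = 0.843 for each). Cox6c, a small structural subunit of complex IV, had 169, 126 and 122 FPKM with L.J. against 200.1, 201 and 224 FPKM in the controls, without overlap.

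The response to busulfan with and without L.J. was compared by the interaction of both treatments. None of 83 subunits was called, none had an unadjusted p under 0.05 in limma (1.24% of all genes did), and 0% of all genes were called. The interaction was above 0 for 77 of 83 subunits, with a median of 0.21 against 0.06 for all genes. The subunit median was 0.32 without busulfan replicate 1 and 0.13 without busulfan replicate 2. The all-gene median was 0.11 and 0.027 without those libraries, -0.0047 when L.J. replicate 2 was left out and 0.14 when L.J. replicate 3 was. With the Sertoli list held constant the subunit median was 0.065, against -0.084 for all genes. The smallest p belonged to Cox6c (0.59 ± 0.28), Uqcr10 (0.81 ± 0.39) and Ndufc2 (0.66 ± 0.33; adjusted p = 1 for each).

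Other genes of respiration were counted from lists of fixed membership in busulfan against control, beside the 51.4% of all genes lower and 12.4% higher; each direction is that of the deposited scale. Of 47 assembly factors tested, 34 fell and 3 rose (median -0.64). Cox14, an assembly factor of complex IV, was the lowest at -1.58 ± 0.37, and stayed below 0 with the Sertoli list held constant (-0.35). The 3 risers were Lyrm7 (0.98, adjusted p = 0.0156) and Uqcc1 (0.56), which serve complex III assembly, and Nubpl (0.51), which serves complex I. All 3 also rose with each library scaled to its median gene and with the Sertoli list held constant. Of 8 genes grouped as mobile carriers, 6 fell and 1, Coq10b, rose (median -0.99). Etfa, a subunit of the electron transfer flavoprotein, was the lowest at -1.38. This group held Cycs, Cyct, Coq10a, Coq10b, Etfa, Etfb, Etfdh and Cyc1 of complex III, so not all of its members are mobile carriers.

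Of 17 genes of the citric acid cycle and pyruvate dehydrogenase, 13 fell and none rose (median -0.67, deposited scale). The lowest was Idh3g, a subunit of isocitrate dehydrogenase on the X chromosome, at -1.57, and the highest Sucla2 at 0.22, which did not pass. Pyruvate dehydrogenase gave a further testis pair: Pdha2, the germ cell form, had 62.4, 55.9 and 56.15 FPKM with busulfan plus L.J., 66.1, 58.3 and 65.8 FPKM with busulfan, 74.2, 60.8 and 37.5 FPKM with L.J., and 57.7, 73.0 and 54.8 FPKM in the controls. The X-linked Pdha1 had 2.53, 2.41 and 2.79 FPKM with busulfan plus L.J., 2.64, 2.0 and 2.25 FPKM with busulfan, 5.71, 3.13 and 11.2 FPKM with L.J., and 6.85, 5.13 and 10.9 FPKM in the controls. Pdha2 overlapped between groups (change 0.04, adjusted p = 0.863), and Pdha1 fell by 1.34 (adjusted p = 0.00819).

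The adenine nucleotide carriers, which exchange ADP and ATP across the inner membrane, did not follow that pattern: the germ cell form Slc25a31 fell by 0.96 (adjusted p = 0.00539), beside 1.24 for Slc25a4 (adjusted p = 0.0155) and 1.91 for Slc25a5, the lowest of the 10 carrier and outer membrane genes, of which 8 fell and none rose (median -0.96, deposited scale). With the Sertoli list held constant Slc25a31 and Slc25a4 stood at 0.42 and 0.17, against a median of 0.70 over all genes. Of 9 regulators of mitochondrial biogenesis tested, 5 fell and 1 rose (median -0.70, deposited scale); Pprc1, a coactivator, was the lowest at -1.12. The riser was Tfam, the mitochondrial transcription factor A, with 104, 91.5 and 98.7 FPKM with busulfan plus L.J., 76.9, 91.3 and 94.8 FPKM with busulfan, 20.2, 50.3 and 20.3 FPKM with L.J., and 11.8, 23.1 and 10.6 FPKM in the controls. The 6 busulfan-treated libraries lay above all others, by 2.53 ± 0.34 in busulfan against control (adjusted p = 0.00381), and the direction held under the 3 other scalings. Values per gene do not separate the transcripts of Tfam, so they do not show which product rose. The part of spermatid RNA in this rise was not tested.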

How the data were processed

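RNA of 12 testis libraries was analysed from 1 table of FPKM values for 21004 genes, deposited by the authors with 1 column per library. Reads were aligned with Bowtie 0.12.2 to mm10, per the submitters' processing notes; the quantifier, annotation and filters are not stated there. All groups come from the labels. The members and gene lists were chosen with earlier results of these data known. Symbols turned into dates (26) were replaced through RefSeq gene IDs, which matched 20841 of the genes (99.2%).

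Values were taken as log2(FPKM + 1), and fold changes on that scale understate the change of low genes. Genes with at least 1 FPKM in at least 3 libraries (14675, with 6329 removed) entered limma (version 3.58.1, R 4.3.3) with a mean trend and all 4 groups in 1 model; p-values were adjusted by Benjamini-Hochberg over all genes tested, with a threshold of 0.05. The script was tested on simulated data. Log ratios of pairs and shares of the FPKM sum were tested by exact permutation over libraries in Python 3.11.15, two-sided. FPKM gives no counts, so depth was estimated and no counting interval was given.

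Named genes were all paralog pairs, the 3 highest and 3 lowest changes of each complex in busulfan against control, members called against their complex, core subunits, untested members, the 3 smallest p where no member was called, and the extremes and tissue forms of the other respiration lists. The share of Atp5g3 and the chromosomes of members were examined after their values were seen. Alternatives were another pseudocount, no filter, and scaling by quantiles, by the median gene or by the Sertoli list. Further alternatives were other sample sets, a replicate block and leaving out each library. For the shares, a denominator without the 10 most abundant genes of each library was also used. Omitting L.J. replicates 2 and 3 from the pair ratios and shares was added after seeing the data. The values of 1 gene that the rule for named genes covers are not reported here.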

Additional observations from a re-analysis of the deposited data

How the results depend on the processing

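Scaling moved the subunits most, and the cause was not tested. In busulfan against control, calls were 3 higher and 9 lower with each library scaled to its median gene, 3 higher and 0 lower with Sertoli markers held constant, and 1 higher and 55 lower after quantile normalization. Over all 14675 genes these counts were 3104 and 1982, 3859 and 71, and 2448 and 2761. The subunit medians were 0.013, 0.82 and -0.67, against 0.0095, 0.70 and -0.16 over all genes. In busulfan plus L.J. against control they were 6 higher and 11 lower, 2 higher and 0 lower, and 1 higher and 64 lower under the same 3 scalings. Over all genes these counts were 3446 and 2504, 3338 and 142, and 2644 and 3369. The subunit medians were -0.054, 0.63 and -0.73, against 0.001, 0.58 and -0.17 over all genes. Busulfan against control turned positive with Sertoli markers held constant for Cox6b2 (1.43), Cox6b1 (0.066), Cox8c (0.96), Cox7b2 (1.02), Cox4i1 (0.63), Cox5a (1.11), Cox6a1 (0.41), Cox7a2 (1.28), Ndufa11 (0.12), Ndufs8 (0.32), Ndufv1 (0.91), Ndufv2 (1.32), Sdha (0.69), Sdhb (0.66), Sdhc (0.46), Sdhd (0.23), Uqcr11 (0.18), Uqcr10 (0.36), Uqcrc2 (0.43), Uqcrc1 (1.05), Uqcrfs1 (0.77), Atp5g3 (0.082), Atp5g2 (0.32), Atp5a1 (0.44), Atp5b (0.92), Atp5h (1.10), Cyct (1.10), Cycs (0.16), Slc25a4 (0.17) and Slc25a31 (0.42). Scaling to the median gave positive values for Cox6b2 (0.61), Cox8c (0.14), Cox7b2 (0.21), Cox7a2 (0.47), Uqcrc1 (0.24), Atp5b (0.11), Atp5h (0.28), Ndufv1 (0.11), Ndufv2 (0.51), Cox5a (0.30) and Cyct (0.29). Quantile normalization gave negative values for Ndufa5 (-0.21) and Pdha2 (-0.037). In busulfan plus L.J. against control, Cox6b2 was -0.39 after quantile normalization, Cox6b1 0.076 with Sertoli markers held constant, Cox8c 0.14 and 0.85, and Cox7b2 0.15 and 0.85, scaled to the median and to Sertoli markers.

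Replicate numbers do not pair these libraries: same-numbered busulfan and control libraries had correlations of deviations of -0.0509, -0.00949 and -0.117, those with busulfan plus L.J. and busulfan 0.247, 0.0915 and 0.121, and those with L.J. and control -0.175, 0.759 and 0.62, so no comparison had every pair over 0.1. With the replicate block the calls were 2 higher and 58 lower in busulfan against control, and the exact paired p rose above 0.05 for the ratios of Cox8c (0.99), Cox7b2 (0.83), Cox7a1 (-1.06) and Ndufa4l2 (1.41). Without L.J. replicates 2 and 3 the ratios of Cox7b2 (0.60) and Cox7a1 (-0.74) no longer passed. Leaving out 1 library at a time gave 38 to 64 lower and 0 to 2 higher calls in busulfan against control, and 48 to 67 lower and 0 to 2 higher in busulfan plus L.J. against control. The averaged log2 ratios then ranged over 0.57 to 1.26 for Cox8c, 0.51 to 1.03 for Cox7b2, 0.53 to 1.18 for Cyct and -1.29 to -0.66 for Cox7a1. Near-zero changes in busulfan against control spanned 0 for Cox6b2 (-0.068 to 0.058), Cox7a2 (-0.36 to 0.035), Ndufa5 (-0.065 to 0.11) and Pdha2 (-0.036 to 0.17), as did Cox6b2 in busulfan plus L.J. against control (-0.022 to 0.10). Of the values for counts, ratios and shares under all alternatives, 410 stayed alike, 31 lost their call and 17 moved. Without read counts, the precision of low genes is not known.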
